A study of Mus musculus with 6 samples.

Results

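Dystroglycan and the enzymes that start its O-mannose glycans were followed in whole lung of adult female F1 mice from a pair of outcrosses. The genes were Dag1, which encodes dystroglycan, and Pomt1, Pomt2 and Pomgnt1. They were chosen by function around Pomt1, and Pomt1 was selected on its difference between the same groups of arrays, known from an earlier analysis. Every probe set that the platform annotation gives a single symbol among these 4 genes was taken, which made 8 of 45037 probe sets without controls: 1 for Pomt1, 2 for Pomt2, 1 for Pomgnt1 and 4 for Dag1. A further probe set, 1443679_at, carries the symbols of both Pomgnt1 and 2510003B16Rik and was left out. The first group, AKR_F1, came from AKR/J outcrossed with FVB/NJ, and the other, DBA_F1, from DBA/2J outcrossed with FVB/NJ, with 3 Affymetrix arrays each. All mice thus share an FVB/NJ chromosome set, and the labels give no treatment beyond the Avertin anaesthesia under which the mice were killed. They do not say which strain was the mother, give no age beyond adult and do not state that each array came from a separate mouse, so the spread between arrays may be partly technical.

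Dystroglycan is made as 1 precursor and cut into an extracellular alpha subunit and a membrane-spanning beta subunit. Alpha-dystroglycan binds laminins, agrin and perlecan in basement membranes through a long sugar chain, matriglycan, while the beta subunit binds dystrophin or utrophin inside the cell. The sugar chain is built on O-linked mannose, which POMT1 and POMT2 add together as an enzyme complex in the endoplasmic reticulum from dolichol-phosphate mannose. POMGNT1 acts in the Golgi and adds N-acetylglucosamine to the mannose. In the lung, dystroglycan lies on epithelial cells next to the basement membrane, and loss of any of these enzymes is known chiefly for muscular dystrophy with brain and eye malformations.

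The promoters of Pomt1 and Dag1, the members with higher signal in AKR_F1, are shown as the reference sequence around the start of each gene. They come from RefSeq on the GRCm38.p6 build, which is the C57BL/6J strain and none of the parental strains here. All 4 members were found in that table. Each run has 250 bases before and 50 bases after the start, 5′ to 3′ on the strand of the gene. The Pomt1 window is chr2:32236390-32236689 on the plus strand and the first of 2 Dag1 windows is chr9:108263909-108264208 on the minus strand. Capitals mark matches to 3 promoter motifs, each spelled out with its counts after the runs, which were searched on both strands and do not overlap one another here.
Pomt1: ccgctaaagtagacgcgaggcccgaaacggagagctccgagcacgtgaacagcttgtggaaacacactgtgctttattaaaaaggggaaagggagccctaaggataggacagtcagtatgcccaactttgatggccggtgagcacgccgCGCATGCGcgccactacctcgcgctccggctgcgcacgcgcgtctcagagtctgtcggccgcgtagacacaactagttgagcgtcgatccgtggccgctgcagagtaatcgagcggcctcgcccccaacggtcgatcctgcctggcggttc
Dag1: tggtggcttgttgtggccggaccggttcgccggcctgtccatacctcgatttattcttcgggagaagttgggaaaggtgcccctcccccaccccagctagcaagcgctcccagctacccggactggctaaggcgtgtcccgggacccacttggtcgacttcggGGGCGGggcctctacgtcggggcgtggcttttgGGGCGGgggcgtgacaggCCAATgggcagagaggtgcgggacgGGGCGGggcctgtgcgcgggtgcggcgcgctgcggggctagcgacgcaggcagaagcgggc

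The Pomt1 window held 1 match to the core letters of an NRF1 site, CGCATGCG, which was present in 1.91% of 27025 promoters of this length (the first entry of each gene), and no match to the other motifs. The Dag1 window held 3 matches to the GC box GGGCGG, found in 35.9% of promoters. It also held 1 match to the CCAAT box (named by its letters), found in 37.9% of promoters. The first windows of Pomt2 and Pomgnt1 held 1 and 5 GC boxes. These are matches of letters and were not set against the expression values.

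Signals are log2 values, so a difference of 1 is a change by a factor of 2, and they were put on a common scale between arrays before deposit. Pomt1 had the largest difference of the 4 genes. Its probe set 1424284_at read 7.52, 7.56 and 7.41 in AKR_F1, in replicate order, and 6.35, 6.51 and 6.43 in DBA_F1. Every AKR_F1 array was above every DBA_F1 array, with a gap of 0.90 between the nearest arrays of the groups against a range of 0.15 within AKR_F1 and 0.16 within DBA_F1. The means were 7.50 ± 0.079 and 6.43 ± 0.082 (SD, n = 3 per group), a log2 difference of 1.07 ± 0.073 (AKR_F1 minus DBA_F1, moderated standard error, SE) or 2.10-fold. A difference of at least this size in either direction occurred in 1.01% of 27022 tested probe sets. Since Pomt1 was chosen for this difference, the value is a description and carries no test. It rests on the single probe set that the platform has for the gene under its own symbol.

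**Figure D1:**
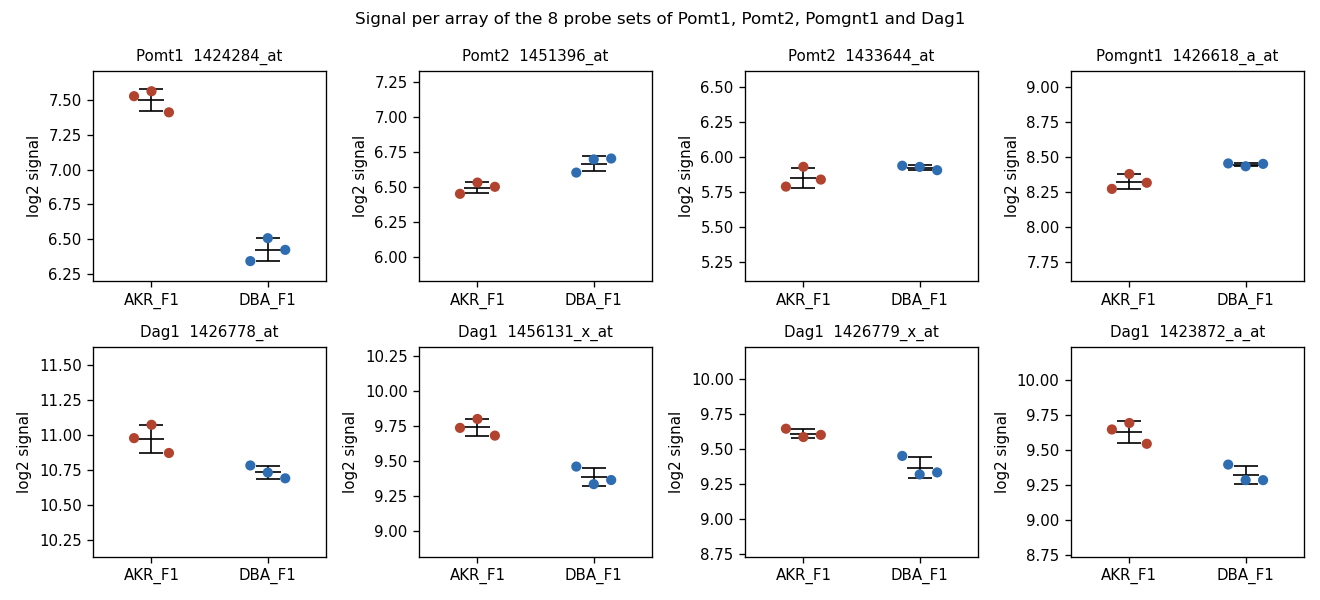
Log2 signal of each of the 8 probe sets on the 3 AKR_F1 (red) and 3 DBA_F1 (blue) arrays, with arrays in replicate order from left to right and lines at the mean and SD of each group; all panels span the same 1.5 log2 units. The Pomt1 points are separated by 0.90, all 4 Dag1 panels have AKR_F1 above DBA_F1, and the Pomt2 and Pomgnt1 panels lie near level or slightly higher in DBA_F1.

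Pomt2, the partner of Pomt1 in the transferase complex, was not higher in AKR_F1. The brighter of its probe sets, 1451396_at, read 6.45, 6.53 and 6.50 in AKR_F1 and 6.60, 6.70 and 6.70 in DBA_F1. The DBA_F1 arrays were the higher ones here, by a log2 difference of -0.17 ± 0.064, and the groups were separated by only 0.071. Its other probe set, 1433644_at, read 5.79, 5.93 and 5.84 in AKR_F1 and 5.94, 5.93 and 5.90 in DBA_F1. Those values overlapped, with a difference of -0.072 ± 0.070.

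Pomgnt1, which extends the mannose that the POMT complex adds, was close to level. Its probe set 1426618_a_at read 8.27, 8.38 and 8.32 in AKR_F1 and 8.46, 8.44 and 8.45 in DBA_F1. All DBA_F1 arrays were above all AKR_F1 arrays, by a mean log2 difference of -0.12 ± 0.050 (1.09-fold). The nearest arrays of the groups were 0.055 apart, less than the range of 0.11 within AKR_F1.

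Dag1 was slightly higher in AKR_F1 by each of its 4 probe sets. The brightest, 1426778_at, read 10.98, 11.07 and 10.87 in AKR_F1 and 10.78, 10.73 and 10.69 in DBA_F1. The groups did not overlap, AKR_F1 replicate 3 was the lowest of its group, and the difference was 0.24 ± 0.060 (1.18-fold). The other probe sets differed by 0.35 ± 0.055 (1456131_x_at), 0.31 ± 0.059 (1423872_a_at) and 0.24 ± 0.052 (1426779_x_at), in each case with no overlap. The endings _a_at and _x_at are the platform's marks for probe sets that match several transcripts of a gene or that may share probes with other sequences. Pearson correlations among the 4 probe sets over the 6 arrays ran from 0.87 to 0.99, and from 0.25 to 0.96 once group means were removed. They are descriptions of 4 readings of 1 gene on the same arrays.

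Counted together, 7 of the 8 probe sets had groups that did not overlap, against 23.6% of all tested probe sets. Of these, 5 were higher in AKR_F1, where 14.6% of tested probe sets were non-overlapping in that direction, and 2 were higher in DBA_F1. In the limma fit over all probe sets, 3 of the 8 (that of Pomt1 and 1456131_x_at and 1423872_a_at of Dag1) passed an adjusted p under 0.05, against 2.62% of tested probe sets, and all 3 were higher in AKR_F1, against 1.57%. A difference at least as large as the smallest of Dag1 was found in 16.2% of tested probe sets. Nothing is read from these shares, since the genes were brought together with this comparison known and 4 of the 8 probe sets read the same transcript.

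The arrays differed in signal from tissue beside the lung parenchyma. The means of 10 skeletal muscle markers ran from 5.24 to 10.59 in AKR_F1 and from 9.82 to 10.45 in DBA_F1, and those of 7 squamous markers from 4.65 to 9.28 and from 8.87 to 9.46. The low values were those of AKR_F1 replicates 1 and 2, where, by the mean of both arrays, 2 of the muscle markers and 3 of the squamous markers lay below the filter level of 4.72, while AKR_F1 replicate 3 read like the DBA_F1 arrays. The means of 6 adipose markers were 6.11 to 7.39 in AKR_F1 and 8.32 to 9.56 in DBA_F1, with no overlap and 5 of the 6 called, all lower in AKR_F1. Those of 5 of 8 listed Schwann cell markers, a cell type rich in dystroglycan, were 5.94 to 6.09 against 6.13 to 6.42, with none called. The brightest, Mbp, was higher in AKR_F1 by 0.13 ± 0.058 and the others were lower. The largest differences were those of Ncmap (-0.64) and S100b (-0.45), which read as low as 4.50 and 4.59 in AKR_F1, below the filter level. Alveolar and endothelial markers, which check the labelled tissue, were present on all arrays. The means of 7 alveolar type 2 markers were 12.76 to 12.87 against 12.57 to 12.71, and those of 8 endothelial markers 10.42 to 10.58 against 10.27 to 10.37, both without overlap. Of the alveolar type 2 markers 2 were called and all 7 were higher in AKR_F1. Of the endothelial markers 0 were called and 7 of the 8 were higher in AKR_F1. The means of 8 alveolar type 1 markers overlapped, at 11.58 to 11.76 against 11.49 to 11.60. In whole tissue such as this, fewer cells of a type and less RNA per cell cannot be told apart.

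**Figure D2:**
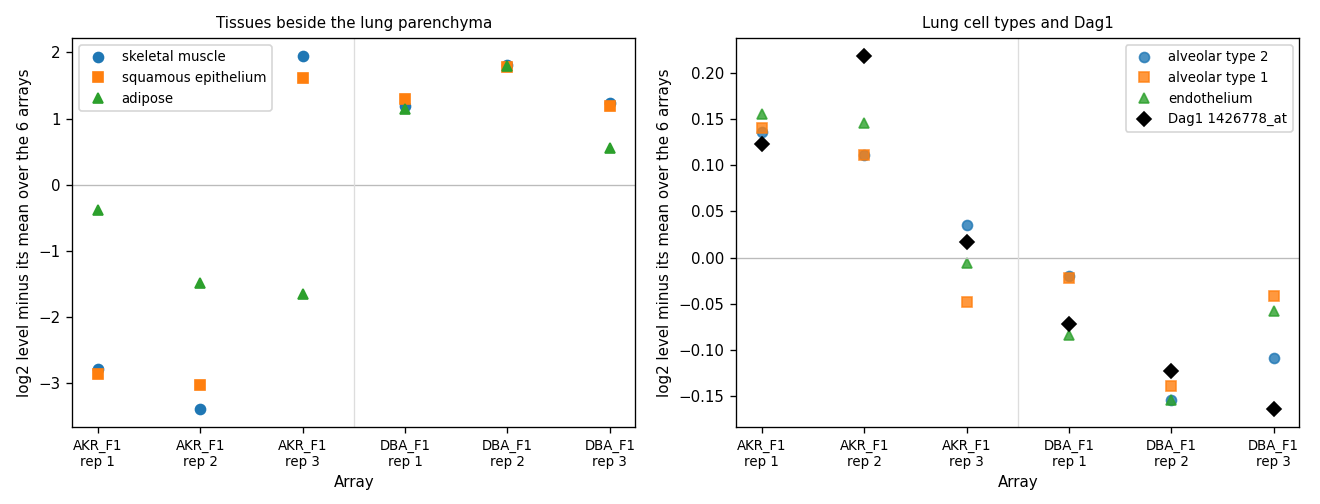
Mean log2 level of each marker list on each array, minus its mean over the 6 arrays, for tissues beside the lung parenchyma (left) and for lung cell types with Dag1 1426778_at (right); the vertical scales differ. Skeletal muscle and squamous markers are low on AKR_F1 replicates 1 and 2 only, and Dag1, like the alveolar type 2 and endothelial lists, is higher on every AKR_F1 array than on any DBA_F1 array.

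The members were set beside these lists on a single array. On AKR_F1 replicate 3 alone, which holds muscle and squamous signal as the DBA_F1 arrays do, Pomt1 was higher than the DBA_F1 mean by 0.98, close to the difference from all arrays. Pomt2 and Pomgnt1 stood at -0.17 and -0.13. Dag1 by its brightest probe set was higher by 0.14, and with the skeletal muscle mean as a covariate its difference was 0.15 ± 0.061, against 0.24 over all arrays. Its other probe sets stood 0.30 (1456131_x_at), 0.23 (1426779_x_at) and 0.22 (1423872_a_at) above the DBA_F1 mean on that array. The part of alveolar and endothelial cells and of adipose tissue in the differences of Dag1 and the other members was not tested.

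The rest of the pathway was described by 5 lists with 60 genes, of which 46 had a probe set above the filter on low signal. By the brightest probe set of each gene, 1 of these 46 passed an adjusted p under 0.05, against 2.48% of all 13202 tested genes. Their median log2 difference was 0.0071, beside 0.015 over all tested genes, and 17 of the 46 had groups that did not overlap, against 24.2% of tested genes. An unadjusted p under 0.05 was found for 13 of the 46 in limma, where 2523 of the 13202 tested genes had one, and the counts of such genes in each list are to be read beside that background. By the brightest probe sets, the differences in the lists ran from -0.36 to 0.30. Dimmer tested probe sets reached -0.87 (Sgcb 1436678_at) and 0.65 (Tmtc2 1441033_at). Since Pomt1 was chosen for its difference, nothing is read from its size beside the lists.

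**Figure D3:**
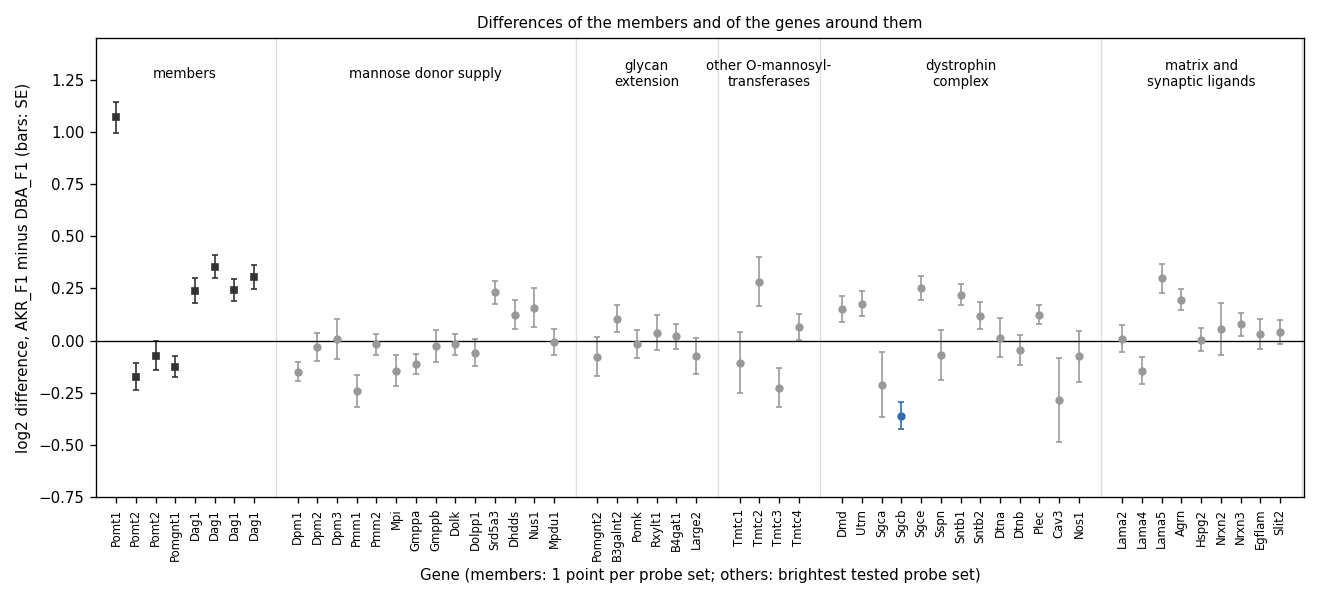
Log2 difference between AKR_F1 and DBA_F1 with its SE for the 8 member probe sets (squares) and for the brightest tested probe set of each gene in 5 lists (circles; blue marks a call with higher signal in DBA_F1, grey no call). Pomt1, chosen for its difference, is at 1.07, the other points lie between -0.36 and 0.35, and Sgcb is the only coloured circle.

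The donor of the mannose, dolichol-phosphate mannose, is made by a set of enzymes that also serve other glycosylation. None of the 14 genes of donor supply, all above the filter, passed the limma fit, and 4 had an unadjusted p under 0.05. Their median difference was -0.022. The phosphomannomutase Pmm1 had the largest one, at -0.24 ± 0.077 (adjusted p = 0.168), and Srd5a3, which makes dolichol, had 0.23 ± 0.057 by its brightest probe set (adjusted p = 0.0985). The other tested probe sets of Srd5a3 differed by 0.19, -0.036 and -0.16, and the mean of all 4 by 0.055 (adjusted p = 0.666). Dpm1, the catalytic subunit of the synthase that makes the donor, differed by -0.15 ± 0.046 and Nus1, a subunit of the enzyme that starts dolichol synthesis, by 0.16 ± 0.095, neither called. Dolk, the kinase for dolichol, differed by -0.018 ± 0.051.

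The enzymes that extend the glycan beyond the first mannose were nearly level. Of these genes 6 were above the filter. None of the 6 passed, none had an unadjusted p under 0.05, and their median difference was 0.0022. Pomgnt2, which acts on the branch that carries matriglycan, differed by -0.076 ± 0.093 by its brightest probe set. Its other tested probe set went the other way, at 0.072 ± 0.080, and neither was called. The xylosyltransferase Rxylt1 differed by 0.038 ± 0.085 and the glucuronyltransferase B4gat1 by 0.020 ± 0.060. Large2, which lengthens matriglycan, differed by -0.074 ± 0.085. Mgat5b lay below the filter.

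B3galnt2, which adds N-acetylgalactosamine on the same branch, had probe sets that disagreed. The brightest, 1434135_at, differed by 0.10 ± 0.064 and 1454842_a_at by -0.18 ± 0.081, and neither was called. A dim probe set, 1442750_at, read 5.10, 4.90 and 5.60 in AKR_F1 and 3.79, 3.80 and 3.47 in DBA_F1. The groups were far apart there, by a log2 difference of 1.51 ± 0.19. The DBA_F1 signals lay below the filter level of 4.72, and the probe set was left out by the filter. That level is a rank cut and not a measured background limit, so whether these low signals are above background is not known. With no filter, an alternative chosen for this probe set after its values were seen, limma gave it an adjusted p of 0.00888. The fourth probe set, 1460105_at, read between 2.64 and 3.02 on all arrays.

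The TMTC proteins and TMEM260 attach O-mannose to cadherins and plexins and not to dystroglycan. Of 5 genes 4 were above the filter, none passed in limma and 2 had an unadjusted p under 0.05. The median difference was -0.020. By their brightest probe sets, Tmtc2 differed by 0.28 ± 0.12 (adjusted p = 0.256) with overlapping groups, and Tmtc3 by -0.23 ± 0.092 (adjusted p = 0.257). The other tested probe set of Tmtc2 differed by 0.65 ± 0.29, also with overlap. Those of Tmtc3 differed by -0.15 and 0.25, so they disagreed in direction, and none of these was called. Tmtc1 differed by -0.11 ± 0.15.

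In the complex that ties dystroglycan to the cytoskeleton, 1 of 13 tested genes passed. This was Sgcb, beta-sarcoglycan, a membrane subunit beside dystroglycan, and it was lower in AKR_F1. Its brightest probe set, 1419668_at, read 7.57, 7.47 and 7.41 in AKR_F1 and 7.87, 7.86 and 7.80 in DBA_F1. The groups did not overlap, and the difference was -0.36 ± 0.064 (limma adjusted p = 0.0371). The second, 1419667_at, read 7.19, 7.19 and 7.17 against 7.64, 7.69 and 7.60, a difference of -0.46 ± 0.055 (limma adjusted p = 0.00972). The third, 1436678_at, differed by -0.87 ± 0.16 (limma adjusted p = 0.0383), so all 3 probe sets gave the same direction. The call was lost by the brightest probe set without any 1 of the 6 arrays (limma adjusted p from 0.0574 to 0.154, differences from -0.41 to -0.32) and by 1419667_at without AKR_F1 replicate 1 (0.0547), AKR_F1 replicate 2 (0.0526) or DBA_F1 replicate 2 (0.0521). The third was lost without AKR_F1 replicate 1 (0.142), AKR_F1 replicate 2 (0.151), DBA_F1 replicate 1 (0.0603) or DBA_F1 replicate 2 (0.155). With the replicate number as a block the brightest probe set had -0.36 (limma adjusted p = 0.0652), and with the skeletal muscle covariate -0.41 (0.0921), so the call was lost in both. On AKR_F1 replicate 3 alone the brightest probe set stood at -0.44 from the DBA_F1 mean. The muscle marker mean on that array was 10.59, against 9.82 to 10.45 in DBA_F1. Its adipose marker mean was 6.11, against 8.32 to 9.56. Tissue content as a cause of the Sgcb difference was not tested.

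**Figure D4:**
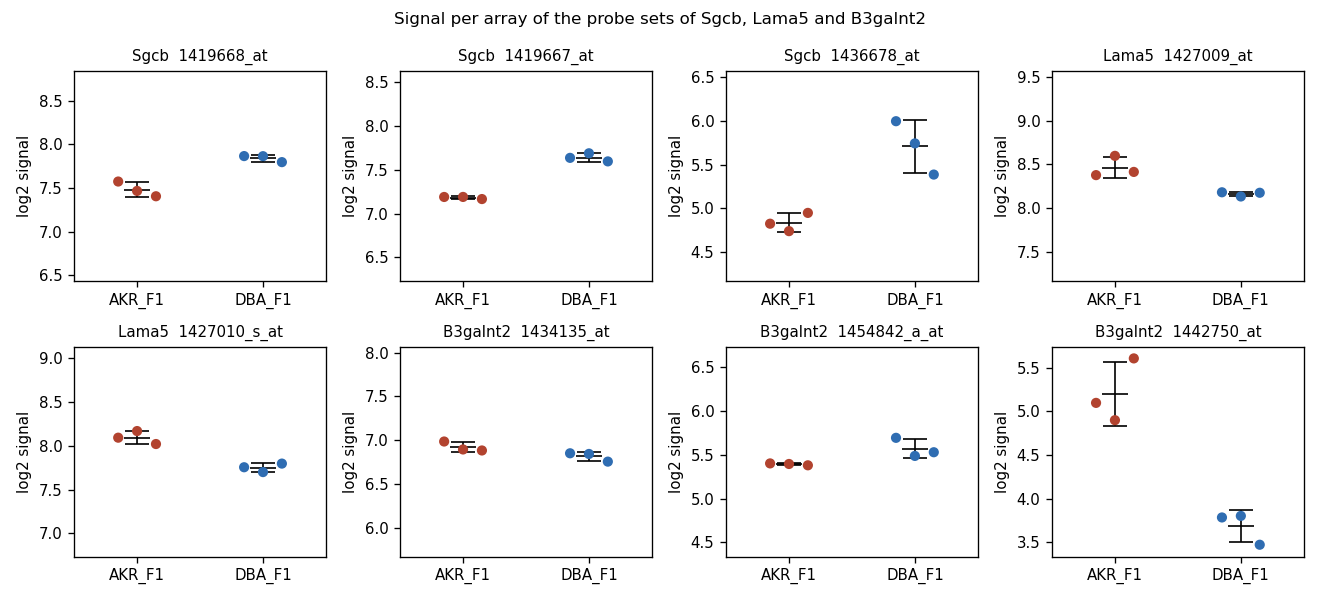
Log2 signal per array for the 3 probe sets of Sgcb, the 2 tested ones of Lama5 and 3 of B3galnt2, drawn as for the member probe sets, with 2.4 log2 units in each panel. All Sgcb panels have DBA_F1 above AKR_F1, both Lama5 panels have AKR_F1 above DBA_F1, and the B3galnt2 panels disagree, with a wide gap only for the dim 1442750_at.

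The other 12 tested genes of the complex did not pass, and 5 of the 13 had an unadjusted p under 0.05, Sgcb included. The median difference of the list was 0.015. Sgce, epsilon-sarcoglycan, which is widely expressed outside muscle, differed by 0.25 ± 0.058 (adjusted p = 0.0804), and the syntrophin Sntb1 by 0.22 ± 0.051 (adjusted p = 0.0812). The other tested probe sets of Sntb1 differed by 0.27, 0.13, 0.093 and -0.011, and none was called. Utrophin (Utrn), which takes the place of dystrophin in many tissues outside muscle, differed by 0.18 ± 0.060 and dystrophin (Dmd) by 0.15 ± 0.065, neither called. The crosslinker plectin (Plec) differed by 0.12 ± 0.044. Without AKR_F1 replicate 3, Sgce had 0.30 and a limma adjusted p of 0.0293. In that setting the calls over all tested probe sets rose from 707 to 1171. It was the only call of Sgce with 1 array left out, where the limma adjusted p reached 0.260.

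Alpha-sarcoglycan (Sgca) and caveolin-3 (Cav3), which mark striated muscle, split the AKR_F1 arrays. Sgca read 6.31, 6.40 and 6.90 on AKR_F1 replicates 1 to 3 and 6.84, 6.75 and 6.65 in DBA_F1. Cav3 read 5.29, 5.40 and 6.04 against 6.05, 5.80 and 5.73. Both were lower on the arrays with little muscle signal, and their group differences were -0.21 ± 0.16 and -0.28 ± 0.20. Sgcd, Sntg1 and Sntg2 lay below the filter.

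Of the ligands that bind the matriglycan of dystroglycan, 9 were tested and none passed by its brightest probe set, with 2 at an unadjusted p under 0.05 in limma. The median difference was 0.040. The laminin alpha 5 chain (Lama5), the main alpha chain of adult lung basement membranes, was the largest. Its brightest probe set, 1427009_at, read 8.38, 8.60 and 8.41 in AKR_F1 and 8.18, 8.13 and 8.17 in DBA_F1. The groups did not overlap, and the difference was 0.30 ± 0.069 (adjusted p = 0.0812). Its other tested probe set, 1427010_s_at, differed by 0.34 ± 0.061 and was called (limma adjusted p = 0.0371), but not without AKR_F1 replicates 1 or 2, nor without any DBA_F1 array (0.0551 to 0.151). The mean of its tested probe sets differed by 0.32 (adjusted p = 0.0498).

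Agrin (Agrn) differed by 0.20 ± 0.051 (adjusted p = 0.112) and laminin alpha 4 (Lama4) by -0.14 ± 0.064. Slit2, a guidance protein that binds dystroglycan, had 0.040 ± 0.057. The perlecan gene Hspg2 and Lama2, the laminin chain of muscle, were level at 0.0053 ± 0.055 and 0.0089 ± 0.064. Lama1 lay below the filter.

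The genes beside each member on the chromosome were compared as well, taking the 5 nearest genes with a tested probe set on either side. Of the 10 around Pomt1, on chromosome 2, only Swi5, a homologous recombination factor, was called. It read 10.70, 10.73 and 10.58 in AKR_F1 and 10.18, 10.14 and 9.99 in DBA_F1. It was thus higher in AKR_F1, as Pomt1 was, by 0.57 ± 0.065 (limma adjusted p = 0.00822). The call was lost without AKR_F1 replicate 1 (0.0523) or AKR_F1 replicate 2 (0.0519). On AKR_F1 replicate 3 alone it stood 0.48 above the DBA_F1 mean. Uck1, a uridine-cytidine kinase and the gene next to Pomt1, differed by 0.21 ± 0.16, and Prrc2b, the nearest tested gene on the other side, by 0.062 ± 0.062, neither called. The median of the 10 was 0.11, and 9 of the 10 were positive, where 7280 of the 13202 tested genes were. Around Pomt2, Pomgnt1 and Dag1, 4, 7 and 3 of the 10 neighbours were positive.

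**Figure D5:**
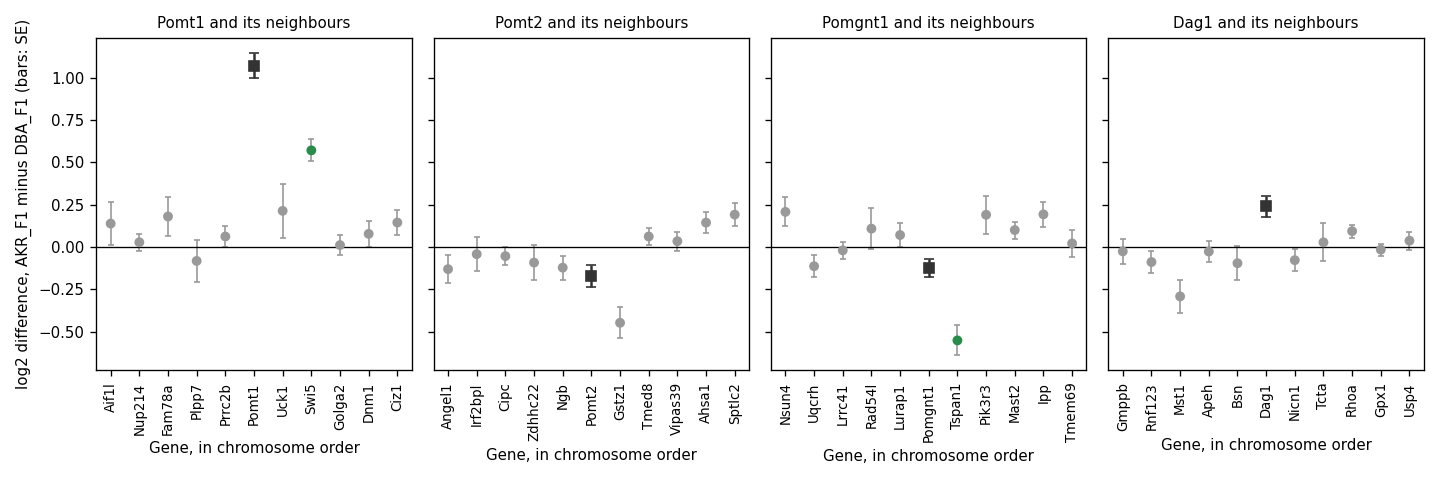
Log2 difference between AKR_F1 and DBA_F1 with its SE for each member by its brightest probe set (black square) and for the 5 nearest tested genes on either side in chromosome order (circles; green marks a call). Pomt1 at 1.07 stands above its neighbours, of which Swi5 is highest at 0.57, and the neighbours of Dag1 lie between -0.29 and 0.093.

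Around Pomgnt1, on chromosome 4, only the adjacent tetraspanin gene Tspan1 was called, at -0.55 ± 0.088 (limma adjusted p = 0.0270). Its call was lost without AKR_F1 replicate 1 (0.0932), DBA_F1 replicate 1 (0.0662), DBA_F1 replicate 2 (0.0834) or DBA_F1 replicate 3 (0.0579), with the replicate block (0.0679) and with the skeletal muscle covariate (0.0922). The mean of its tested probe sets differed by -0.31 (adjusted p = 0.154). None of the 10 around Pomt2, on chromosome 12, was called. The detoxifying enzyme Gstz1, next to it, differed by -0.45 ± 0.091 (adjusted p = 0.0578). None of the 10 around Dag1, on chromosome 9, was called either, and their median was -0.026. Gmppb, a donor supply gene, is among them and differed by -0.026 ± 0.076.

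The genes with the pattern most like that of each member were found by Pearson r over the 6 arrays, without a p, since all of them share the group difference and the arrays. For Pomt1 these were Acer3 (r = 0.998), Mapk1ip1l (0.997), Stard3nl (0.996), Lrmda (0.995) and Slc12a2 (0.995), and 202 tested genes had r above 0.95. Their log2 differences ran from 0.20 (Lrmda) to 0.72 (Acer3), all below that of Pomt1. For Dag1 they were Spock2 (0.998), Zmym1 (0.997), Igfbp2 (0.996), Fbxw17 (0.996) and Lats2 (0.995), with 191 genes above 0.95. For Pomt2 they were Ccdc57, Fbxo4, Maip1, Igfbp4 and Plxnb3 (0.994 to 0.988), and for Pomgnt1 Hagh, Ankrd66, Slfn8, Tmem53 and Aarsd1 (0.996 to 0.992), with 71 and 54 genes above 0.95.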

How the data were processed

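The deposited table holds 1 value per probe set and array on a log2 scale, already scaled between arrays by the authors. MAS5 and RMA are both listed without versions, per the submitters' processing notes, and which of them made the table is not given in the sources used here. Array medians were 5.46 to 5.49. Low values have no stated background limit, and precision is limited by having 6 arrays. Of the 45037 probe sets without the 64 controls, 34945 have 1 symbol, 932 several and 9160 none. Symbols were updated by gene ID through the RefSeq table of GRCm38.p6 (34741 matched), which also gave gene order.

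Ranked by their mean signal, the dimmest 40% of probe sets (4.72 or less) were left out, leaving 27022. Differences came from limma 3.58.1 in R 4.3.3 (lmFit, eBayes with a trend, 4 residual and 3.06 prior degrees of freedom, two-sided) with a group term alone and Benjamini-Hochberg adjustment over all tested probe sets. The fit was also run on simulated data, drawn as independent normal values for each probe set. Those data lack the shared muscle and squamous signal that splits the AKR_F1 arrays, so that run does not cover it. A gene is represented by its brightest tested probe set. Named list genes are those called, the 3 with the largest difference and the 2 brightest of each list, with called neighbours and the 5 most alike genes, and other genes as examples chosen after their values were seen. Members and lists were chosen with earlier results of these data known. Alternatives cover scaling, filter, variance model, array weights, a replicate block, a muscle covariate, left-out arrays and probe set summaries.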

Additional observations from a re-analysis of the deposited data

How the results depend on the processing

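Direction was kept for all 4 members under each alternative run. With 1 array left out, the log2 difference of Pomt1 ran from 1.03 to 1.11, Pomt2 from -0.21 to -0.15, Pomgnt1 from -0.15 to -0.099 and Dag1 from 0.19 to 0.29. For AKR_F1 replicate 3 alone against DBA_F1, added after the data were seen and with its spread taken from the DBA_F1 arrays alone, so that few calls can be made, Pomt1 was 0.98 and Dag1 0.14. With the skeletal muscle covariate Dag1 was 0.15. As the mean of its probe sets Pomt2 was -0.12. Probe sets called over all tested numbered 707 and ran from 198 to 1171 with 1 array left out. Leaving out AKR_F1 replicate 1 gave 198, replicate 2 of that group 199 and replicate 3 of it 1171, and leaving out DBA_F1 replicate 2 gave 249. They were 1198 with array weights, 318 with the skeletal muscle covariate and 85 for AKR_F1 replicate 3 alone. Dystrophin complex genes called were 1 in the fit reported, 0 to 2 with 1 array left out, 3 with array weights and 0 with the replicate block, with the skeletal muscle covariate or for AKR_F1 replicate 3 alone. Genes called next to the members were 2 in the fit reported, 0 to 2 with 1 array left out, 1 with the replicate block, with the skeletal muscle covariate or by the mean of probe sets, and 0 for AKR_F1 replicate 3 alone. Ligand genes called were 0, and 1 (Lama5) by the mean of probe sets. The other 3 lists had 0 calls under each of 17 alternatives. Causes were not tested beyond what fewer arrays imply.

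Replicate numbers are shared between the groups, and deviations from the group means correlated at 0.31, -0.23 and -0.050 for numbers 1 to 3. No pairing of the samples by number was seen, but these values cannot exclude one. The AKR_F1 deviations also hold the muscle and squamous signal that sets replicate 3 apart. With the replicate block the members' differences are the same by construction. The filter level of 4.72 is a rank cut and not a measured background limit. Whether low signals, such as those of B3galnt2 1442750_at in DBA_F1, are above background is therefore not known.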
